A study of Mus musculus with 2 samples.

Results

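The 6 let-7 hairpins described here are those that GENCODE M21 lists without a numbered copy, Mirlet7g, Mirlet7b, Mirlet7i, Mirlet7d and Mirlet7e, together with Mir98, a let-7 relative under another name. They were taken by gene name, by a rule that uses no measured value, though earlier results of these data were known when it was set. They are 6 of 2202 annotated microRNA genes, and all 6 passed the detection minimum of 10 counts per library, as did 352 genes in all. The libraries came from adrenal gland of male B6CASTF1/J mice, first-generation hybrids of C57BL/6J and CAST/EiJ, aged 25 days and with no treatment in the labels. They form 1 group of 2 biological replicates, with no second group. The animals carry separate numbers in the labels and a common donor entry, so the spread between the libraries may be technical. Whole-gland tissue was used, in which fewer cells of a type and less RNA per cell cannot be told apart.

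MicroRNAs of the let-7 family are known from heterochronic mutants of Caenorhabditis elegans and are abundant in differentiated mammalian tissue. A mature let-7 guides Argonaute to messages that pair with its seed, bases 2 to 8, among them Lin28 and Hmga2. LIN28 proteins in turn bind let-7 precursors and block their maturation in undifferentiated cells. The mature sequence used most often lies on the 5p arm of the hairpin, and the 3p arm is usually the less stable partner.

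The mature 5p arms are given because the counts rest on how far these near-identical sequences can be told apart. They are RefSeq sequences of GRCm38.p6, 5′ to 3′, where all 6 genes matched, and capitals mark the seed.
let-7g-5p: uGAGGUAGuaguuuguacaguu
let-7b-5p: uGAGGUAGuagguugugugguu
let-7i-5p: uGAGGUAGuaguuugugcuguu
let-7d-5p: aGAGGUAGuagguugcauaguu
let-7e-5p: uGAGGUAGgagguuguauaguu
miR-98-5p: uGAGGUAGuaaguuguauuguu

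The 5p arms of the numbered copies, whose sequence each stands in 2 hairpins, are shown for contrast.
let-7a-5p: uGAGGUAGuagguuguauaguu
let-7c-5p: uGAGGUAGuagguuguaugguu
let-7f-5p: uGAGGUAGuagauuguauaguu

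All 6 hairpins share the seed GAGGUAG. Their 5p arms are each 22 bases long and carry the same base at 14 of 22 positions. Relative to let-7a-5p, with its base first and positions counted from 1 at the 5′ end, let-7e has the fewest substitutions, U9G alone. Mirlet7b carries A17G and A19G, Mirlet7d U1A and U16C, Mirlet7g G12U and U18C, and Mir98 G11A and A19U. Mirlet7i stands farthest off, with G12U, A17G, U18C and A19U. Between any 2 of the 6, the 5p arms differ at 2 to 6 positions and the 3p arms at 4 to 20.

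None of these 5p arms occurs whole in another annotated hairpin, on either strand, apart from Gm25927, which overlaps Mirlet7e on the opposite strand, so each is single-copy in that sense. The tables give reads mapped to several places on a summary line of their own, from which it is inferred that such reads are missing from the gene counts. The length at which a read becomes unique therefore matters. Read from its 5′ end, the let-7d arm becomes unique among annotated hairpins at 10 bases and the miR-98 arm at 11. The arms of Mirlet7b, Mirlet7e, Mirlet7g and Mirlet7i become unique at 17 bases, so shorter reads from them were open to loss. These lengths hold only for reads that start at the 5′ end itself. A run of 14 bases from position 2 of the let-7d arm also stands in Mirlet7b and in copies of Mirlet7a and Mirlet7c. For let-7g, a run of 17 bases from position 3 also stands in Mir3962, with both strands searched. Uniqueness was tested against annotated hairpins, not the whole genome. The tables count reads per hairpin, so 5p and 3p arms cannot be told apart in any value below.

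The 6 hairpins together held 836130 of 3588361 sense counts in replicate 1 and 885936 of 4541373 in replicate 2. This is 23.3% in replicate 1 and 19.5% in replicate 2, with a mean of 21.4% ± 2.68 (SD, n = 2). Exact (Clopper-Pearson) 95% intervals were 23.26 to 23.34% in replicate 1 and 19.47 to 19.54% in replicate 2, far narrower than the spread between libraries. Such intervals describe counting error alone and treat each read as independent. PCR copies of a molecule cannot be recognised here, so the intervals can be too narrow even for that error.

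Replicate 2 differed from replicate 1 in hairpins listed here for other organs. Mir122, the hepatocyte microRNA, made up 0.0892% of the counts in replicate 1 and 19.8% in replicate 2. The striated muscle list had 3563 counts in replicate 1 and 3 in replicate 2, with 2 of its 6 hairpins at 0 in both. In replicates 1 and 2 in that order, the kidney tubule list held 0.0106% and 0.140%, from members that did not move together. Mir192 had 70 and 2584 counts and Mir194-2 had 135 and 3581, while Mir204 had 174 and 162. In the same order, the erythroid list held 0.149% and 0.125%, and the leukocyte list 0.196% and 0.0837%. Endothelial Mir126a held 6.28% and 6.08%. The endocrine list held 3.91% and 3.31%, from 2 of its 4 hairpins found by name. No microRNA of these lists defines the adrenal gland alone. With Mir122 left out of the totals the 6 hairpins held 23.3% in replicate 1 and 24.3% in replicate 2. Any let-7 reads from RNA of other organs stay in those counts, so these shares do not measure their part. The part that such RNA has in the let-7 values was not tested.

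The 6 hairpins ran in the same order of read counts in both libraries, led by Mirlet7g, Mirlet7b and Mirlet7i. These 3 supplied 88.0% of the counts of the 6 in replicate 1 and 85.1% in replicate 2. Levels below are in CPM, the reads of a hairpin per 1000000 sense counts of the library, and means carry the SD of n = 2. They are not divided by length, since the 5p arms are equally long. Hairpin lengths, 85 to 108 bases, exceed what a read spans. Ranks below compare gene counts, from which reads mapped to several places are inferred to be missing. MicroRNAs whose mature sequence stands in several hairpins can therefore rank too low.

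Mirlet7g (ENSMUSG00000065440.1) had 346030 counts or 96431 CPM in replicate 1 and 360956 counts or 79482 CPM in replicate 2. By these gene counts it was the most abundant of all microRNA genes in replicate 1, and in replicate 2 it was second to Mir122. It lies on chromosome 9 of mm10, 106178840 to 106178927 on the plus strand, in an intron of Wdr82, which encodes a subunit of a histone H3 lysine methyltransferase complex. No other hairpin is annotated within 10 kb on that strand.

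Mirlet7b (ENSMUSG00000065564.1) had 222318 counts or 61955 CPM in replicate 1 and 234174 counts or 51565 CPM in replicate 2. It ranked 4 in replicate 1 and 5 in replicate 2. It lies on chromosome 15, 85707319 to 85707403 on the plus strand, in an exon of the noncoding transcript Lncppara. Its mean was 56760 CPM ± 7347.

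Mirlet7i (ENSMUSG00000065406.3) had 167377 counts or 46644 CPM in replicate 1 and 158595 counts or 34922 CPM in replicate 2, at rank 6 in both. It lies on chromosome 10, 122985640 to 122985724 on the minus strand. The annotation there is an exon of D630033A02Rik, a transcribed processed pseudogene. As with Mirlet7g, no same-strand hairpin lies within 10 kb.

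**Figure D1:**
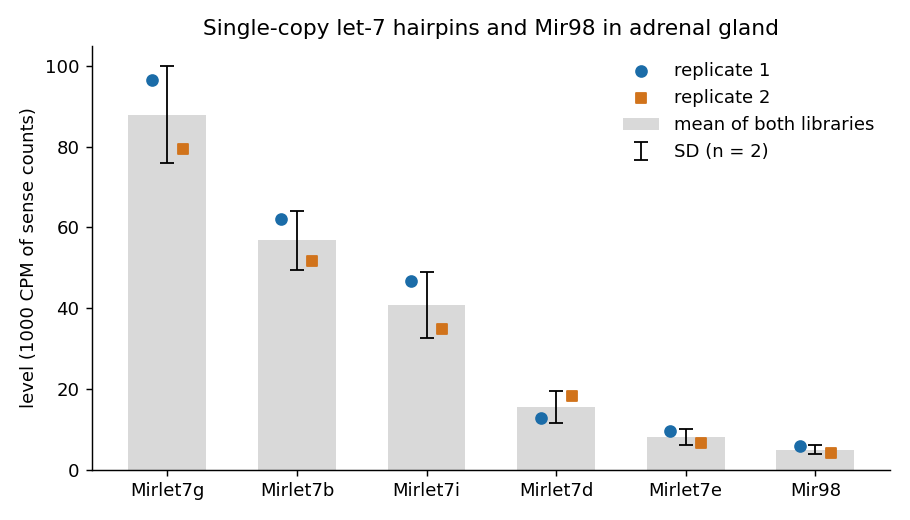
Level of each hairpin in units of 1000 CPM of sense counts. Points are the 2 libraries, grey bars their mean and whiskers the SD (n = 2). Mirlet7d is the hairpin with the higher value in replicate 2, and the other 5 are higher in replicate 1.

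Mirlet7d had 45496 counts or 12679 CPM in replicate 1 and 82922 counts or 18259 CPM in replicate 2. Its mean was 15469 CPM ± 3946, and its rank was 20 in replicate 1 and 16 in replicate 2. Mirlet7d (ENSMUSG00000065453.1) lies on chromosome 13, 48536012 to 48536114 on the minus strand, in an exon of the long noncoding RNA 6720427I07Rik.

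Mirlet7e (ENSMUSG00000105758.1) had 34223 counts or 9537 CPM in replicate 1 and 30347 counts or 6682 CPM in replicate 2. It lies on chromosome 17, 17830352 to 17830444 on the plus strand, in an intron of Spaca6, a gene needed for sperm and egg fusion. It ranked 23 in replicate 1 and 25 in replicate 2.

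Mir98 (ENSMUSG00000065536.2) was the least abundant of the 6, with 20686 counts or 5765 CPM (5687 to 5844, exact interval) in replicate 1. In replicate 2 it had 18942 counts or 4171 CPM (4112 to 4231). It lies on chromosome X, 151913214 to 151913321 on the plus strand, in an intron of Huwe1, which encodes a ubiquitin ligase. Its ranks, 30 and 36, still placed it in the upper part of the 352 detected genes.

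**Figure D2:**
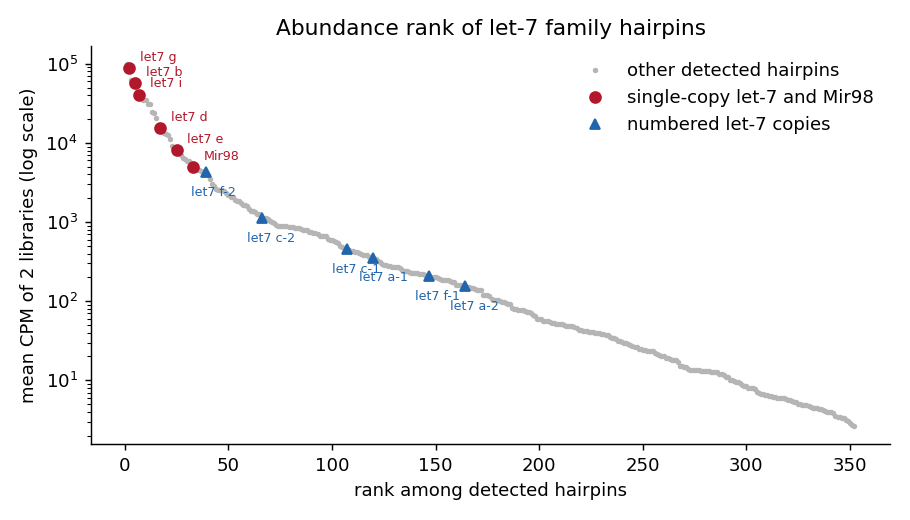
Mean CPM of the 2 libraries on a log scale against rank for the 352 detected hairpins. Red circles are the 6 single-copy hairpins, at ranks 2 to 33 by mean, blue triangles the numbered let-7 copies, and grey points the other detected hairpins.

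The order Mirlet7g, Mirlet7b, Mirlet7i, Mirlet7d, Mirlet7e, Mir98 was the same in both libraries for 15 of 15 pairs. In all 15 pairs the lower value of the more abundant hairpin exceeded the higher value of the other, so no neighbours in the order overlapped over the 2 libraries. Any bias between sequences that both libraries share would not show in this agreement. Ratios between hairpins within a library do not depend on the total. Mirlet7g had 1.56 times the counts of Mirlet7b in replicate 1 (1.55 to 1.56, exact interval) and 1.54 times in replicate 2 (1.53 to 1.55). Mirlet7b had 1.33 times the counts of Mirlet7i in replicate 1 and 1.48 times in replicate 2. Mirlet7e had 1.65 times the counts of Mir98 in replicate 1 and 1.60 times in replicate 2.

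Pairs with Mirlet7d shifted more between the libraries. Mirlet7i had 3.68 times the counts of Mirlet7d in replicate 1 and 1.91 times in replicate 2. Mirlet7d had 1.33 times the counts of Mirlet7e in replicate 1 (1.31 to 1.35) and 2.73 times in replicate 2 (2.70 to 2.77). Across the 5 pairs that include Mirlet7d, the ratio differed between libraries by 1.73-fold to 2.06-fold. Across the 10 pairs without it, the ratio differed by 1.01-fold to 1.19-fold.

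Of the summed counts of the 6, Mirlet7g took 41.4% in replicate 1 and 40.7% in replicate 2, and Mirlet7b took 26.6% and 26.4%. Mirlet7i took 20.0% in replicate 1 and 17.9% in replicate 2. Mirlet7d took 5.44% in replicate 1 and 9.36% in replicate 2. Mirlet7e took 4.09% and 3.43%, and Mir98 took 2.47% and 2.14%. The composition was thus close between the libraries for Mirlet7g and Mirlet7b, with SDs of 0.454 and 0.111 percentage points, and widest apart for Mirlet7d, with an SD of 2.77.

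**Figure D3:**
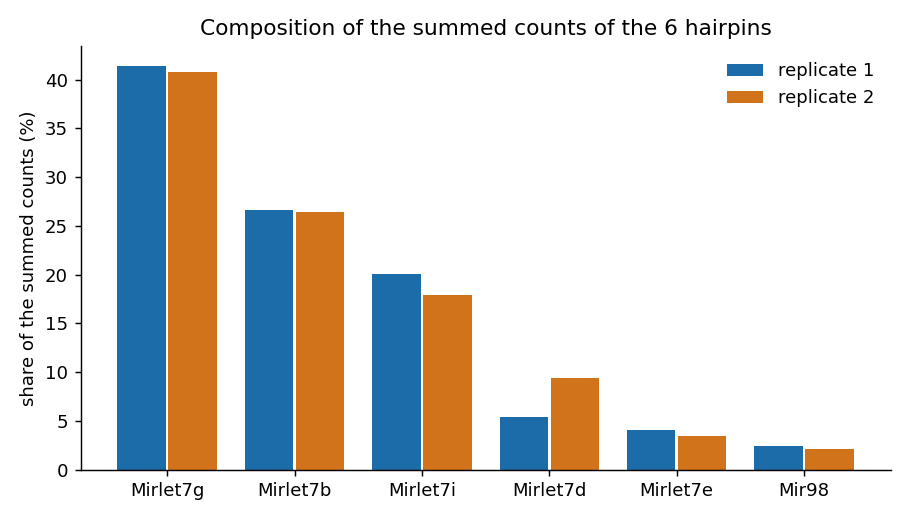
Share of the summed sense counts of the 6 hairpins taken by each, in percent, with replicate 1 in blue and replicate 2 in orange. Mirlet7d took 5.44% in replicate 1 and 9.36% in replicate 2, while Mirlet7b took 26.6% and 26.4%.

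In CPM, 5 of the 6 hairpins were lower in replicate 2 than in replicate 1 and Mirlet7d was higher. A binomial test, exact and two-sided, compared each gene with the totals of the libraries. With Benjamini-Hochberg adjustment over the 352 detected genes it called all 6 at 0.05. The largest adjusted p of the 6 was 2.56e-226, for Mir98, by this exact binomial test. The test compares these libraries, not conditions, and at this depth it calls most genes. It called 67.0% of the 352, and 95.8% of the 71 with a mean of at least 1000 CPM, so a full set of calls among abundant hairpins is close to the background. By direction, 5 of the 6 were called higher in replicate 1, against 36.6% of the 352, and 1 was called higher in replicate 2, against 30.4%.

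With all sense counts as the total, the differences themselves were close in size to those of all detected genes. None of the 6 was more than 2-fold apart, against 17.6% of the 352 genes and 15.5% of the 71 with at least 1000 CPM. For a set of 6, none is close to those shares. On the log2 scale, with replicate 2 over replicate 1, Mirlet7b stood at -0.26, Mirlet7g at -0.28, Mirlet7i at -0.42, Mir98 at -0.47 and Mirlet7e at -0.51. Mirlet7d stood at 0.53, a 1.44-fold difference (1.42 to 1.46, exact interval). The median of the 6 was -0.35, beside -0.04 over all 352 genes. Their median absolute log2 ratio was 0.44, beside 0.47 over all 352 genes, and 44.3% of the 352 had a larger absolute ratio than Mirlet7d.

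The direction of the smaller differences depended on the total. Leaving Mir122 out of both totals raised every log2 ratio by 0.32. Mirlet7b then stood at 0.051 and Mirlet7g at 0.037, the other way from before. Mirlet7i, Mir98 and Mirlet7e kept their direction at -0.10, -0.15 and -0.20. Mirlet7d reached 0.84, or 1.79-fold (1.77 to 1.81). The median of the 6 became -0.03, beside 0.28 over all 352 genes. Their median absolute log2 ratio fell to 0.13, beside 0.44 over the 352 and 0.31 over those with at least 1000 CPM. The likeness in size to all detected genes thus depended on the total as well. With that total all 6 were still called, against 71.3% of the 352 genes and 97.2% of those with at least 1000 CPM. Of the 6, 3 were called higher in replicate 2, against 50.0% of the 352, and 3 higher in replicate 1, against 21.3%. None was more than 2-fold apart, against 20.7% of the 352 and 15.5% of those with at least 1000 CPM.

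**Figure D4:**
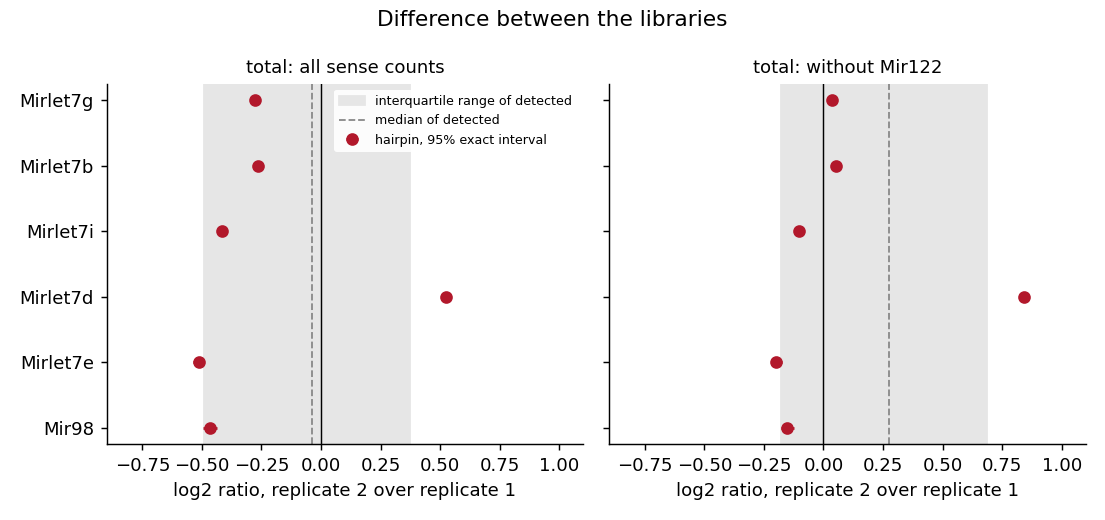
Log2 ratio of replicate 2 over replicate 1 for each hairpin, with exact 95% intervals that are mostly narrower than the points. The left panel uses all sense counts as the total and the right panel leaves out Mir122. The grey band is the interquartile range of the 352 detected genes and the dashed line their median. Mirlet7b and Mirlet7g change sign between the panels, and Mirlet7d lies above the band in both.

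The wider family was represented almost wholly by the 6 hairpins in these counts. They held 97.3% of the counts of the 12 annotated let-7 hairpins in replicate 1 and 96.7% in replicate 2. The 6 numbered copies of Mirlet7a, Mirlet7c and Mirlet7f had 23481 counts, or 0.654% of the library, in replicate 1 and 29895 counts, or 0.658%, in replicate 2. Those are lower limits if reads mapped to several places were left out as inferred, since each of their 5p sequences stands whole in 2 hairpins. Such reads made up 31.6% of input reads in replicate 1 and 27.0% in replicate 2, and which microRNAs they came from was not analysed here. The largest numbered copy was Mirlet7f-2, with 14681 counts in replicate 1 and 20241 in replicate 2. The binomial test called 5 of the 6 copies, Mirlet7a-2 being the exception, against 67.0% of the 352 genes. Of these, 4 were called higher in replicate 1, against 36.6%, and Mirlet7f-2 higher in replicate 2, against 30.4%. With Mir122 out of the totals the split turned: Mirlet7a-2, Mirlet7c-1, Mirlet7c-2 and Mirlet7f-2 were called higher in replicate 2, against 50.0% of the genes. Mirlet7f-1 was called higher in replicate 1, against 21.3%, and Mirlet7a-1 was not called.

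Outside the annotated let-7 names, 2 mature arms of 1738 in the RefSeq table have the same seed. They are shown because they would compete for the same target sites.
let-7k: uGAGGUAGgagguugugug
miR-1961: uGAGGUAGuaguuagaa
Mir7k, the source of let-7k, had 3 counts in replicate 1 and 4 in replicate 2. Mir1961 had 0 counts in replicate 1, which allows a level of up to 0.836 CPM, and 1 count in replicate 2. Neither reached the detection minimum of 10 counts. The shared seed was therefore carried in these counts by the let-7 hairpins and Mir98.

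Several of the 6 lie beside another hairpin on the same strand, and such neighbours can arise from the same primary transcript. The Mirlet7b neighbour is Mirlet7c-2, 621 bases away and also in an exon of Lncppara. Mirlet7b had 52.4 times its counts in replicate 1 (50.8 to 54.0, exact interval) and 48.6 times in replicate 2 (47.3 to 50.1). Both counts can miss reads, since the 5p arm of Mirlet7c-2 is identical to that of Mirlet7c-1 and short Mirlet7b reads match other copies, so the ratio is not a bound.

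Mirlet7d shares its host transcript with Mirlet7f-1 and Mirlet7a-1, which also lie in exons of it. The log2 ratio was 0.53 for Mirlet7d, against -0.54 for Mirlet7f-1 and -0.27 for Mirlet7a-1. With Mir122 out of the totals it was 0.84 for Mirlet7d, -0.23 for Mirlet7f-1 and 0.045 for Mirlet7a-1, which was then not called (adjusted p = 0.486, exact binomial test). Mirlet7d had 32.8 times the counts of Mirlet7a-1 in replicate 1 and 57.1 times in replicate 2. It had 51.9 times the counts of Mirlet7f-1 in replicate 1 and 109 times in replicate 2. The 5p sequences of both neighbours stand whole in another copy, so their counts can miss reads.

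Mir98 lies 785 bases from Mirlet7f-2 in Huwe1. Mir98 had 1.41 times the counts of Mirlet7f-2 in replicate 1 (1.38 to 1.44) and 0.936 times in replicate 2 (0.917 to 0.955). The 5p arm of Mirlet7f-2 stands whole in Mirlet7f-1 too, so its counts can miss reads and no order between Mir98 and Mirlet7f-2 is read from these ratios.

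Mirlet7e sits between Mir99b, 94 bases away, and Mir125a, 367 bases away, members of the miR-99 and miR-125 families that accompany let-7 at several loci. Mir99b had 25997 counts in replicate 1 and 21472 in replicate 2. Mirlet7e had 1.32 times its counts in replicate 1 (1.30 to 1.34) and 1.41 times in replicate 2 (1.39 to 1.44). Mir125a had 11099 counts in replicate 1 and 26254 in replicate 2. Mirlet7e had 3.08 times its counts in replicate 1 and 1.16 times in replicate 2. On the log2 scale, with replicate 2 over replicate 1, Mirlet7e lay at -0.51 and Mir99b at -0.62, both lower in replicate 2, and Mir125a lay at 0.90.

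**Figure D5:**
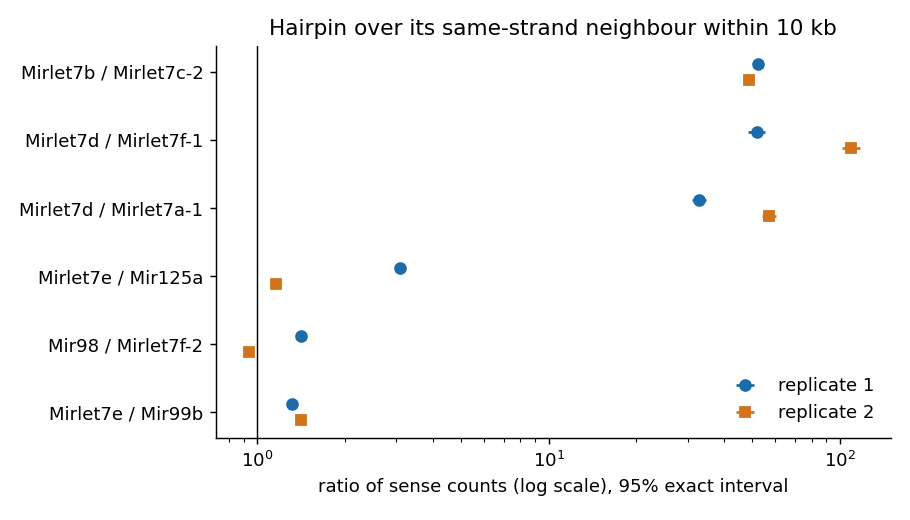
Ratio of sense counts of each hairpin to each same-strand neighbour within 10 kb, on a log scale, with exact 95% intervals. Blue circles are replicate 1 and orange squares replicate 2. The Mir98 to Mirlet7f-2 ratio crosses 1 between the libraries, and the Mirlet7e to Mir99b ratio stays between 1.32 and 1.41.

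The precursor of Mirlet7d is shown whole because it had the highest log2 ratio of the 6, with Mir122 in or out of the totals. That of Mirlet7e is shown because it faces an annotated hairpin on the other strand. Capitals mark the mature 5p and 3p arms, and the lower-case stretch between them holds the terminal loop.
Mirlet7d: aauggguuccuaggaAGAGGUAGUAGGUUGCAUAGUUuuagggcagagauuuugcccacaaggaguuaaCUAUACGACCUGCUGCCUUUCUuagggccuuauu
Mirlet7e: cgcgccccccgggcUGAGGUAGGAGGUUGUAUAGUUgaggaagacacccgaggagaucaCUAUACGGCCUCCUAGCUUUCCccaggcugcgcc
Mirlet7e lies within Gm25927, annotated on the minus strand from 17830343 to 17830459. Every Mirlet7e read was therefore ambiguous when strand was ignored, and the either-strand column lists Mirlet7e at 0 in both libraries. On the sense strand it had 34223 and 30347 counts, so its place in the order rests on strand-aware counting. None of the other 5 faces an annotated hairpin.

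The LIN28 zinc knuckles are known to bind the letters GGAG in let-7 precursors. On the given strand, the stretch between the mature arms held GGAG in 4 of the 6 hairpins, Mirlet7d, Mirlet7e, Mirlet7g and Mirlet7i. Mirlet7b and Mir98 had GAAG there and no GGAG, and Mirlet7e had both. The numbered let-7 copies held GGAG there too, all but Mirlet7c-2, so the motif is not particular to these hairpins. Of all 644 hairpins with both arms named in RefSeq, whose loops vary in length, 52 or 8.07% held GGAG between them. The 4 with GGAG stood at abundance places 1, 3, 4 and 5 of the 6 and those without at 2 and 6, so levels did not sort by the motif.

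Outside the family, the detected hairpins nearest in level over the 2 libraries were found by Euclidean distance on log2 CPM. For Mir98 these were Mir7b, at a distance of 0.04, and Mir541, at 0.20. For Mirlet7b they were Mir378a at 0.18 and Mir126a at 0.24, and for Mirlet7i Mir143 at 0.18 and Mir10a at 0.29. For Mirlet7e they were Mir335 at 0.27 and Mir191 at 0.34. Mirlet7d and Mirlet7g had no close match. The nearest to Mirlet7d were Mir127 at 0.51 and Mir30e at 0.59, and the nearest to Mirlet7g were Mir126a at 0.73 and Mir378a at 0.77. With 2 libraries this likeness is mostly one of level.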

How the data were processed

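The deposited values are raw read counts per microRNA gene, which the authors made on mm10 with GENCODE M21, per the file headers in the accompanying text. How reads were trimmed, aligned and counted is not given in the sources used here, and that reads mapped to several places were left out of gene counts is inferred from their summary line. There are 2202 genes in a table, 4 summary lines that name no gene and were left out, and 3 count columns, whose values showed them to be either-strand, sense and antisense counts, and sense counts were used.

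Of input reads, 8666085 in replicate 1 and 10284575 in replicate 2, 41.4% and 44.2% were sense counts, 21.3% and 22.8% were unmapped, and 5.73% and 5.99% lay outside microRNA genes. The floor of 3 counts was worth 0.836 and 0.661 CPM.

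All 2202 identifiers matched GENCODE M21. Detected genes had at least 10 counts in both libraries. With 1 group there is no contrast for edgeR's quasi-likelihood test, and libraries were compared by a binomial test (exact, two-sided) of each gene against the totals, Benjamini-Hochberg adjusted over all detected genes at 0.05. Simulated data held counting error alone, on 352 genes, 200 of them changed. The share recovered was 56.8% for a 1.2-fold change, 78.3% for 1.5-fold and 90.1% for 2-fold, with 2.04% of unchanged genes called. The test assumes the same error, so these shares do not describe the wider variation between the real libraries.

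Named genes were the 6 hairpins, the other let-7 hairpins, hairpins with the same seed, same-strand hairpins within 10 kb, the 2 nearest in level to each, and Mir122. The hairpins and lists were chosen with earlier results of these data known. The minimum of 1000 CPM for abundant genes and the loop motif were chosen after the values were seen. Alternatives were totals without Mir122 or of all input reads, edgeR 4.0.16 TMM factors, DESeq2 1.42.0 size factors, either-strand counts, other count minimums, other family members and each library left out. Python 3.11.15, scipy 1.17.1 and R 4.3.3 were used.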

Additional observations from a re-analysis of the deposited data

Results flagged for a closer look

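Antisense counts enter no comparison above. Among the 6 hairpins, Mirlet7b had 21 of them, 9 in replicate 1 and 12 in replicate 2, in each library more than the 3 counts that a count of 0 allows. Of all Mirlet7b counts, sense and antisense, they were 0.00405% in replicate 1 and 0.00512% in replicate 2. The other 5 hairpins had 0 antisense counts in both libraries. The source of the antisense counts was not tested.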

How the results depend on the processing

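The order of the 6 hairpins and the separation of all 15 pairs were the same under all sense counts, totals without Mir122, all input reads, TMM factors and DESeq2 size factors. Leaving Mir122 out of the totals turned the log2 ratio to 0.051 for Mirlet7b and to 0.037 for Mirlet7g. It gave 3 hairpins called higher in replicate 2, instead of 1, and 3 higher in replicate 1, instead of 5. The share of the 6 was 9.13% of all input reads, a larger denominator by construction. It was 24.5% by either-strand counts, where reads at hairpins with an opposite-strand partner drop out of the total and Mirlet7e is listed at 0. Leaving out each library gave 19.5% to 23.3% for the share of all counts and 96.7% to 97.3% for the share of the family. TMM factors, DESeq2 size factors and the other count minimums changed no call or direction among the 6, and counting same-seed hairpins in the family left its share within the spread between replicates. No paired analysis was possible because there is only 1 group. Depth does not limit the levels of these hairpins, which had at least 18942 counts in each library, and n = 2 libraries does.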

Other observations

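A further hairpin carries a let-7 name without the family seed. Mir7j on chromosome 3, chosen after its values were seen, is the source of let-7j, whose seed differs from that of let-7a-5p by G8U, with the let-7a base first and positions counted from the 5′ end.
let-7j: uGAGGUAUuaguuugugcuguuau
It had 193 counts or 53.8 CPM in replicate 1 and 222 counts or 48.9 CPM in replicate 2, so it was detected in both libraries at a level below each of the 12 annotated let-7 hairpins.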
